A study of Homo sapiens with 4 samples.

Results

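Aminoacyl-tRNA synthetases load each amino acid onto its transfer RNA, the step that supplies the ribosome. The genes described here are 20 synthetases of the cytosol, 16 synthetases of the mitochondrion and 3 scaffold proteins (AIMP1, AIMP2 and EEF1E1), 39 genes in all, taken by gene symbol from the 26255 symbols measured. All 39 had a mean of at least 1 FPKM (fragments for each kilobase of a transcript, corrected for library size), as did 12663 genes of the whole set. Genes whose names end in ARS2 were counted as mitochondrial. GARS and KARS were counted as cytosolic, although each is known to serve both compartments.

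The mRNA of A549, an established human lung adenocarcinoma line labelled WT in all groups, was sequenced in 4 libraries, with 1 library per group. The groups were the 4 combinations of culture (2D or 3D) and oxygen (normoxia or hypoxia). For 3D, cells were placed on solidified Matrigel, a basement membrane gel, and for 2D on an ordinary dish. Every culture was kept 5 days in DMEM with 5% serum, and hypoxia was 1% oxygen; no oxygen value is given for normoxia. In what follows, the 2 values of a culture are given with normoxia first and hypoxia second. The study asked which transcripts go with the structures formed on the gel when oxygen is low.

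In the cytosol, 8 of the synthetases (those for glutamate and proline together, isoleucine, leucine, methionine, glutamine, arginine, lysine and aspartate) join the 3 scaffolds in the multisynthetase complex, while the others work outside it. Mitochondria use a separate, nuclear-encoded set for the proteins made on mitochondrial ribosomes. Several cytosolic synthetase genes are known targets of ATF4, the transcription factor of the integrated stress response, which is switched on when amino acids run short.

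Depth had to be estimated from the smallest FPKM steps, and came to about 24000000 and 38900000 fragments in 2D and 11800000 and 11400000 in 3D. Depth thus differed with culture and, within 2D, with oxygen. Its part in the culture and hypoxia differences was not tested. All 10 listed targets of hypoxia-inducible factor rose in hypoxia (limma, adjusted p under the 0.05 threshold for each, median log2 change 2.05). The epithelial keratin KRT8 and the cadherin CDH1 were present in every library, at 1894 FPKM or more and 24.6 FPKM or more. Of the other listed epithelial markers, KRT18, KRT7 and KRT19 stood at 1721, 480 and 23.6 FPKM or more. KRT7 was lower and KRT19 higher in 3D at both oxygen levels. EPCAM was low, at 1.43 to 2.73 FPKM. The leukocyte marker PTPRC stayed at or under 0.017 FPKM, CD3E was listed at 0 throughout, and so was CDKN2A, a gene deleted in A549. Of the 6 blood cell markers, CD68 and CD14 passed the filter, and the summed level of the 6 was 41.2 to 43.8 FPKM in 3D and 16.7 to 31.5 FPKM in 2D; of the 9 endothelial and fibroblast markers, COL1A1 alone passed, and their sum was 0.953 to 1.06 FPKM in 3D and 3.21 to 14.5 FPKM in 2D. Their part in the culture differences was not tested.

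Synthetase mRNAs were spread over a wide range of levels, and the median cytosolic gene stood above the median mitochondrial gene in every library. The median cytosolic gene was at 49.2 and 37.0 FPKM in 2D and 43.8 and 34.8 FPKM in 3D. The median mitochondrial gene was at 14.0 and 12.3 FPKM in 2D and 12.2 and 10.1 FPKM in 3D. AARS, the alanine enzyme, had the highest mean of the 39 (109 FPKM), followed by KARS for lysine (83.2 FPKM), IARS2, the mitochondrial isoleucine enzyme (71.7 FPKM), and TARS for threonine (68.7 FPKM). The lowest means were those of the mitochondrial proline enzyme PARS2 (2.91 FPKM), the mitochondrial tryptophan enzyme WARS2 (3.63 FPKM) and the mitochondrial methionine enzyme MARS2 (4.56 FPKM). Some neighbours in this order had ranges over the libraries that overlapped, such as IARS2 (58.5 to 87.7 FPKM) and TARS (50.9 to 92.6 FPKM).

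**Figure D1:**
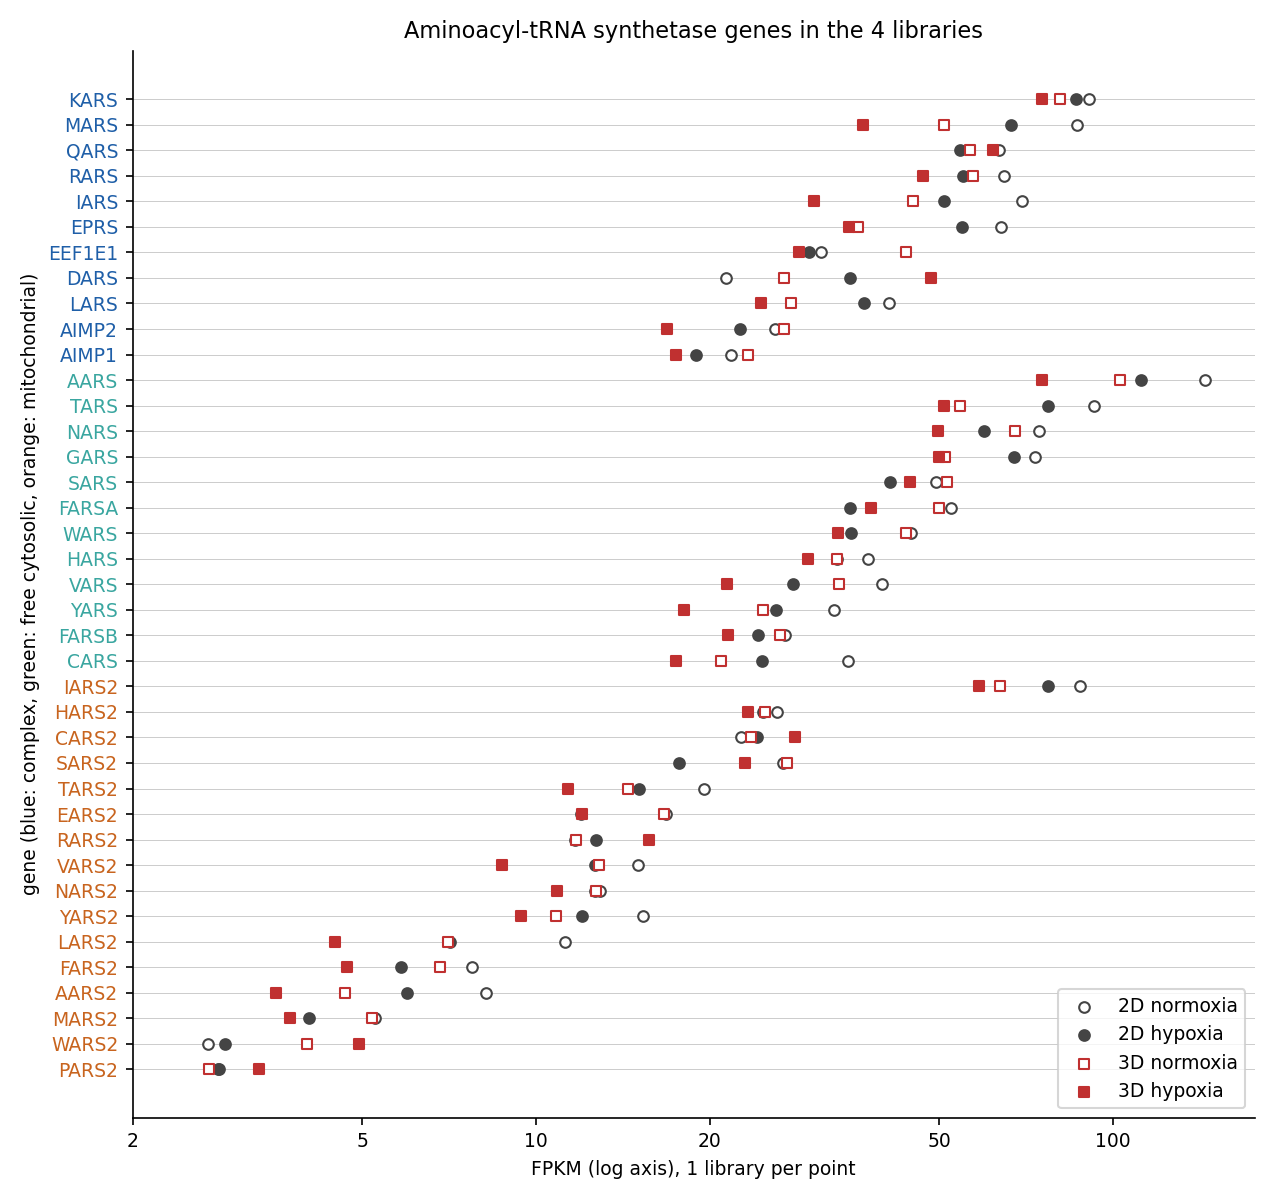
FPKM of the 39 genes (log axis) in each of the 4 libraries, 1 point per library, ordered by mean within the multisynthetase complex, the free cytosolic group and the mitochondrial group. The levels run from about 2.7 FPKM (WARS2 in 2D normoxia) to 144 FPKM (AARS in 2D normoxia), and DARS is the cytosolic gene whose filled hypoxia symbols lie to the right of its open normoxia symbols in both cultures.

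More synthetase genes passed the test for culture (11 of 39 lower in 3D and 1 higher) than for oxygen. In 3D, 9 of 23 cytosolic genes fell and 0 rose, against 11.6% of all tested genes called lower and 10.4% called higher by the same test (limma with trend on log2(FPKM + 1), culture and oxygen as additive terms, Benjamini-Hochberg adjustment over 12663 genes). Of the 16 mitochondrial genes, 2 fell and 1 rose. At an unadjusted p under 0.05, 10 cytosolic and 6 mitochondrial genes were lower (21.5% of all tested genes were), and 1 of each group was higher (18.8% of all). The median log2 change from 2D to 3D was −0.20 for cytosolic, −0.09 for mitochondrial and −0.03 for all tested genes. Nothing in the labels says that the libraries came from separate cultures, and no group has a replicate. The 1 residual degree of freedom is the difference between a gene's hypoxia ratios in the 2 cultures. In the fit it is pooled with a spread taken from all tested genes (prior 4.67). Each p-value thus sets an effect against that pooled value, and measures no spread between replicates. All 12 calls were lost with no filter on low values (adjusted p from 0.0563 to 0.132), a setting that left 1 gene called higher and 2 lower among 19356. In bulk RNA, fewer cells expressing a gene and less of its RNA per cell cannot be told apart.

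Within the multisynthetase complex, 4 of 11 genes fell in 3D, beside 11.6% of all tested genes. MARS, the methionine enzyme, measured 86.6 and 66.6 FPKM in 2D and 51.0 and 36.8 FPKM in 3D, a log2 change of −0.80 (SE 0.12, limma adjusted p = 0.0137). EPRS, which charges both glutamate and proline, measured 64.0 and 54.6 FPKM in 2D and 36.1 and 34.8 FPKM in 3D, a log2 change of −0.72 (SE 0.12, limma adjusted p = 0.018). IARS, the isoleucine enzyme, measured 69.4 and 51.0 FPKM in 2D and 45.1 and 30.3 FPKM in 3D, a log2 change of −0.67 (SE 0.12, limma adjusted p = 0.0195). For all 3, both 3D libraries lay below both 2D libraries. LARS, the leucine enzyme, which is also known as a leucine sensor upstream of mTORC1, measured 40.8 and 37.0 FPKM in 2D and 27.6 and 24.6 FPKM in 3D, a log2 change of −0.56 (SE 0.11, limma adjusted p = 0.0262). The other members of the complex stood closer to 0. KARS had 90.7 and 86.1 FPKM in 2D and 80.8 and 75.2 FPKM in 3D, with no overlap, but its log2 change of −0.18 did not pass (limma adjusted p = 0.303). RARS, for arginine, stood at −0.20, and QARS, for glutamine, at 0.01 with values of 63.3 and 54.3 FPKM in 2D and 56.5 and 62.0 FPKM in 3D that crossed between cultures.

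Among the 12 free cytosolic synthetases, 5 fell in 3D, beside 11.6% of all tested genes. TARS, the threonine enzyme, measured 92.6 and 77.0 FPKM in 2D and 54.3 and 50.9 FPKM in 3D (log2 change −0.67, SE 0.12, limma adjusted p = 0.0208). CARS, for cysteine, measured 34.7 and 24.6 FPKM in 2D and 20.9 and 17.4 FPKM in 3D (log2 change −0.59, SE 0.12, limma adjusted p = 0.0277). AARS measured 144 and 112 FPKM in 2D and 103 and 75.4 FPKM in 3D (log2 change −0.53, SE 0.12, limma adjusted p = 0.0346). The 2 remaining calls were the smallest. GARS, for glycine in both compartments, measured 73.1 and 67.4 FPKM in 2D and 51.2 and 49.98 FPKM in 3D (log2 change −0.47, limma adjusted p = 0.0428). YARS, for tyrosine, measured 32.8 and 26.1 FPKM in 2D and 24.7 and 18.02 FPKM in 3D (log2 change −0.45, limma adjusted p = 0.044). Both calls were lost when each library was centred on its median (adjusted p = 0.0606 for GARS and 0.0613 for YARS) and in the fit without the trend (adjusted p = 0.0564 and 0.061). The valine enzyme VARS stood at −0.30 (adjusted p = 0.112), and the other 6 (FARSA, FARSB, HARS, NARS, SARS and WARS) lay between −0.20 and 0.09.

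The mitochondrial genes went both ways in 3D. AARS2, the mitochondrial alanine enzyme, measured 8.18 and 5.98 FPKM in 2D and 4.67 and 3.54 FPKM in 3D (log2 change −0.66, SE 0.12, limma adjusted p = 0.022). LARS2, for leucine, measured 11.2 and 7.10 FPKM in 2D and 7.03 and 4.48 FPKM in 3D (log2 change −0.58, SE 0.12, limma adjusted p = 0.0255), so that 3D normoxia and 2D hypoxia nearly met. WARS2 rose, from 2.70 and 2.89 FPKM in 2D to 4.004 and 4.94 FPKM in 3D (log2 change 0.52, SE 0.14, limma adjusted p = 0.0487). WARS2 rested on a low level, and its call was lost when FPKM values were rescaled to an equal sum per library (log2 change 0.41, adjusted p = 0.0911). Next in size came IARS2 (−0.42, adjusted p = 0.0538), TARS2 for threonine (−0.40, adjusted p = 0.0553) and YARS2 for tyrosine (−0.39, adjusted p = 0.062), whose groups did not overlap. After WARS2, the highest culture values of the 39 genes belonged to DARS, the cytosolic aspartate enzyme (0.39, adjusted p = 0.0642), the scaffold EEF1E1 (0.21), SARS2 (0.19), RARS2 (0.14) and CARS2 (0.13). Of these, RARS2 and CARS2 took the other sign when libraries were rescaled to an equal sum, as did FARSA, PARS2, QARS and SARS.

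**Figure D2:**
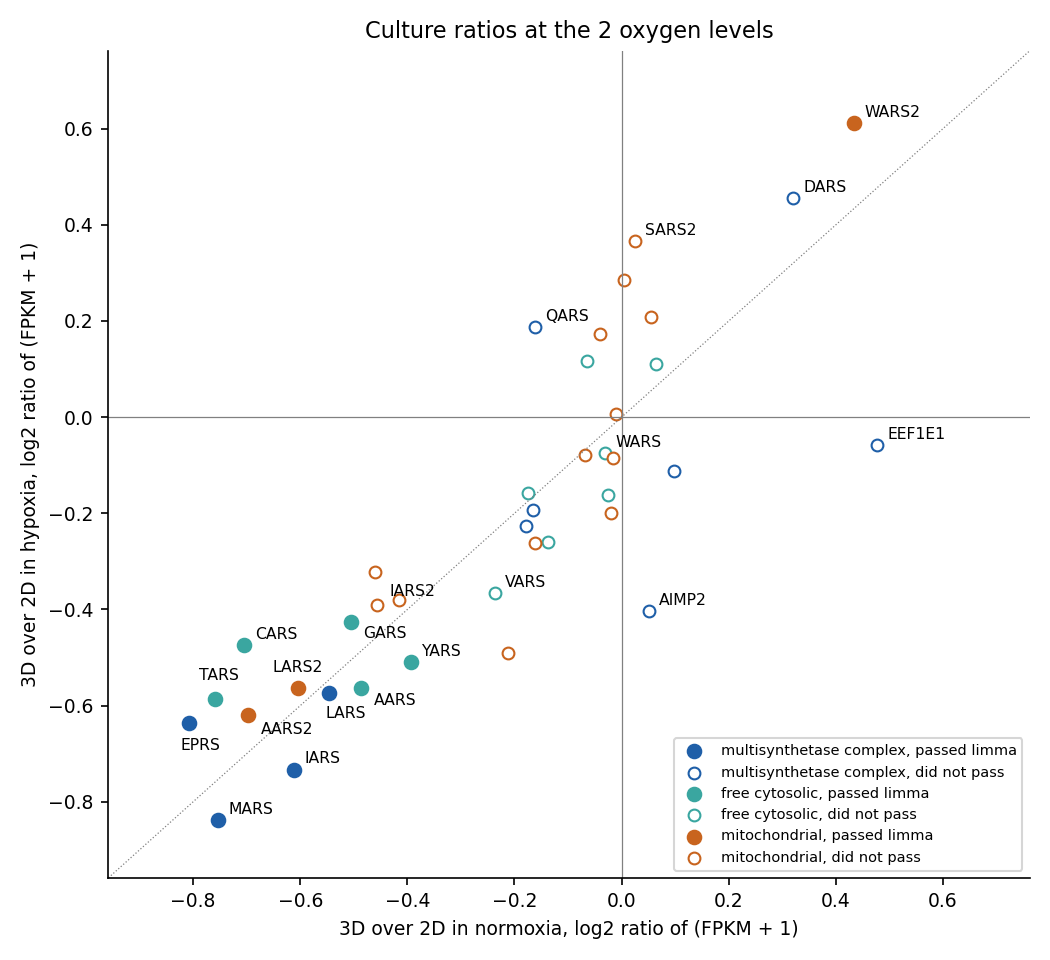
Log2 ratio of (FPKM + 1) of 3D over 2D in normoxia (horizontal) and in hypoxia (vertical) for the 39 genes; colour gives the group, filled points passed limma and the dotted line marks equal ratios. The 11 genes called lower lie in the lower left, WARS2 lies at the upper right, and EEF1E1 and AIMP2 lie off the line.

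Counted over the pairs of libraries, 26 of 39 genes (66.7%) were lower in 3D at both oxygen levels, against 41.9% of all tested genes, and 6 (15.4%) were higher at both, against 36.0%. Both 3D libraries lay below both 2D libraries for 15 of the 39 (30.1% of all tested genes) and above them for 1, WARS2 (25.6% of all). The sizes were modest: 7 genes were at least 1.5-fold lower in 3D in normoxia (10.0% of all tested genes) and 5 in hypoxia (10.1%), while 0 were at least 1.5-fold higher in normoxia (8.79% of all) and WARS2 alone in hypoxia (10.7% of all).

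The genes that fell in 3D were mostly those listed as ATF4 targets. Of 11 cytosolic synthetases usually listed as such (AARS, CARS, EPRS, GARS, IARS, MARS, NARS, SARS, TARS, WARS and YARS), 8 fell and 0 rose, with a median log2 change of −0.53. Of the 12 other cytosolic genes, 1 fell (LARS) and 0 rose, with a median of −0.13. Of all tested genes, 11.6% fell and 10.4% rose by the same test, with a median of −0.03. The exceptions in the first list were NARS for asparagine (74.3 and 59.8 FPKM in 2D and 67.5 and 49.8 FPKM in 3D, log2 change −0.20), WARS for tryptophan (44.6 and 35.2 FPKM in 2D and 43.7 and 33.3 FPKM in 3D, −0.05) and SARS for serine (49.2 and 41.1 FPKM in 2D and 51.5 and 44.4 FPKM in 3D, 0.09), none of which passed.

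The promoters of these genes are shown because ATF4 binds, with C/EBP proteins, a short element whose core reads TGATGNAA. RefSeq windows of 300 bases, 250 before and 50 after the transcription start (GRCh38.p14), were found for 33 of the 39 genes and searched on both strands. DARS, LARS, VARS, YARS, AARS2 and VARS2 had no window and were not searched. Such a match was held by 8 of the 33 genes (24.2%), against 1217 of 27305 genes (4.46%) with a window. Among the cytosolic genes that fell in 3D it was held by 6 of the 7 with a window (AARS, CARS, GARS, IARS, MARS and TARS, but not EPRS), and among the cytosolic genes that did not pass by 1 of 12 (NARS). Of all tested genes with a window, 2.67% held one, and of all genes called lower in 3D, 3.53%. The last of the 8 was YARS2, the sole mitochondrial gene of 14 with one. The split by call uses these data, so it is a description, and a match is not a site of binding.

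Each sequence is given from 220 bases before the start to 30 bases after it, 5′ to 3′ along the gene, with the match in capitals; TTGCATCA is TGATGCAA read on the other strand. The first 6 belong to cytosolic genes that fell, EPRS to one that fell without a match in its window, and NARS to one with a match that did not pass.
AARS: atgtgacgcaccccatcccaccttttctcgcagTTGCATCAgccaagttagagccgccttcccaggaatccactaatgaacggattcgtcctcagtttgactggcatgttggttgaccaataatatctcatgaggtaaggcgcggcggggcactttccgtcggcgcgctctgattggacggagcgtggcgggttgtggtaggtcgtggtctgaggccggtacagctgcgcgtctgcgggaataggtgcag
CARS: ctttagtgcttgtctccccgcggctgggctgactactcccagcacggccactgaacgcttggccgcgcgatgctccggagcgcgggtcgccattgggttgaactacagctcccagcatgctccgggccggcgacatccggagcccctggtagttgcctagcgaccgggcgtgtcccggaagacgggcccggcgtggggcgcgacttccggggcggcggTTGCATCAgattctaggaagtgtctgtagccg
GARS: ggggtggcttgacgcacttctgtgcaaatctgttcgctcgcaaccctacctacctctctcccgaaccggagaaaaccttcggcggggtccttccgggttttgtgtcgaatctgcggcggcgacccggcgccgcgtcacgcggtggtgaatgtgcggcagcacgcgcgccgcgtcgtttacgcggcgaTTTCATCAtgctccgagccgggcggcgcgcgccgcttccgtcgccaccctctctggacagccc
IARS: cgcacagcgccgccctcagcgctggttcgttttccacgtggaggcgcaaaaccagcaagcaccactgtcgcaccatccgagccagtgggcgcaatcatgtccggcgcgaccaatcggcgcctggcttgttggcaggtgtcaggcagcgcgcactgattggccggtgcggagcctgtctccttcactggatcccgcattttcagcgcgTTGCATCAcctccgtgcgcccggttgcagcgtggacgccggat
MARS: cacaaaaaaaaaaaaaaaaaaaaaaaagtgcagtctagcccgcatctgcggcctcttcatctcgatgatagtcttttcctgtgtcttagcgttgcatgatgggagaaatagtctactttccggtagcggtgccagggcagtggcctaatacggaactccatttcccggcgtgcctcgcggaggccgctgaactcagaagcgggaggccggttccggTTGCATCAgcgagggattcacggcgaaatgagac
TARS: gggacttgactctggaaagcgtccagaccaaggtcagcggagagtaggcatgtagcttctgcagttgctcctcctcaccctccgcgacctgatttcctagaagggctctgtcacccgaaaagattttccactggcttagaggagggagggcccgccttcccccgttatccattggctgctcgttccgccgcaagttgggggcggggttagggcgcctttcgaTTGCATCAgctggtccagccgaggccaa
EPRS: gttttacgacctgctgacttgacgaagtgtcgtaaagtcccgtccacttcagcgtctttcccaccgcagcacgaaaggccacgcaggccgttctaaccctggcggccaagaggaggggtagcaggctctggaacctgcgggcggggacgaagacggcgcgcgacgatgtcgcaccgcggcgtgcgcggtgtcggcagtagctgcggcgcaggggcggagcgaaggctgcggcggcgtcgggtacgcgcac
NARS: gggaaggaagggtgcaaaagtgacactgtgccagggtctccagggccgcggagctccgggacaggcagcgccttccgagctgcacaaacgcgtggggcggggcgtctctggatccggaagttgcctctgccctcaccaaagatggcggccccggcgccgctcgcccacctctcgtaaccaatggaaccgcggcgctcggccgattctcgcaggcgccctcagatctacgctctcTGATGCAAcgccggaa
These windows lie, in that order, at chr16:70289477-70289726 (minus strand), chr11:3057394-3057643 (minus strand), chr7:30594658-30594907 (plus strand), chr9:92293668-92293917 (minus strand), chr12:57487848-57488097 (plus strand), chr5:33440745-33440994 (plus strand), chr1:220046476-220046725 (minus strand) and chr18:57621807-57622056 (minus strand). The matches of CARS, IARS, MARS, NARS and TARS lay close to the start. In CARS the match covered bases −2 to 6 counted from the start, in MARS −4 to 4, in IARS −13 to −6, in TARS 3 to 10 and in NARS 15 to 22. In GARS it lay at −33 to −26 and in AARS at −187 to −180. GARS differed in its letters, TGATGAAA, from the TGATGCAA of the other 6.

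**Figure D3:**
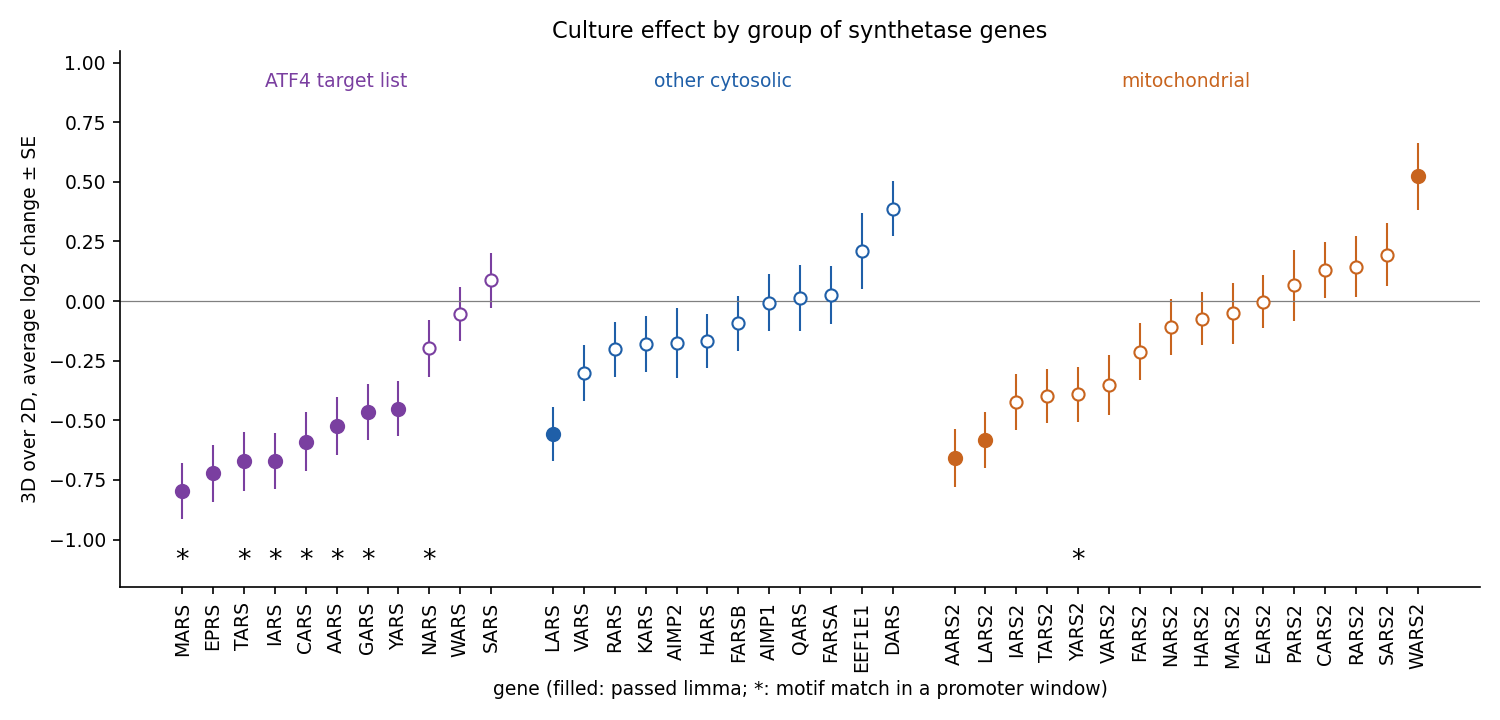
Average log2 change from 2D to 3D with its SE from limma for each gene, in the 11 cytosolic genes listed as ATF4 targets, the 12 other cytosolic genes and the 16 mitochondrial genes; filled points passed limma and an asterisk marks a TGATGNAA match in a promoter window. In the first group 8 points are filled and 7 genes carry an asterisk. In the second, LARS alone is filled and no gene carries one. YARS in the first group, LARS, DARS and VARS in the second, and the mitochondrial AARS2 and VARS2 had no window and were not searched.

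Fewer synthetase genes passed for hypoxia, and most values lay on the same side of 0 in both cultures. Of the 39 genes, 1 rose (3.20% of all tested genes did) and 0 fell (1.64% of all did) in the average over both cultures, by limma; at an unadjusted p under 0.05, 1 was higher (12.9% of all) and 18 were lower (12.7% of all). The median log2 change was −0.29 for the 39 genes and −0.01 for all tested genes, and 34 of the 39 values were below 0. In both cultures separately, 33 of 39 genes (84.6%) were lower in hypoxia, against 36.7% of all tested genes, and 5 (12.8%) were higher, against 34.2%. Both hypoxia libraries lay below both normoxia libraries for 18 of the 39 (17.5% of all tested genes) and above them for 4 (16.7% of all). At least 1.5-fold lower in hypoxia were 3 genes in 3D (VARS, AIMP2 and EEF1E1, 4.59% of all tested genes) and 1 in 2D (LARS2, 5.43% of all), and DARS was at least 1.5-fold higher in both cultures (7.81% of all genes in 3D and 5.91% in 2D).

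DARS was the gene that rose. It measured 21.4 and 35.0 FPKM in 2D and 26.9 and 48.3 FPKM in 3D, a log2 change of 0.75 (SE 0.12, limma adjusted p = 0.0322). Both hypoxia libraries lay above both normoxia libraries, and the ratios were 0.69 in 2D and 0.82 in 3D on the log2 scale. The call depended on the settings: the adjusted p was 0.0533 with libraries centred on their medians, 0.0523 without the trend and 0.117 without the filter on low values. The gene overlaps DARS-AS1, an antisense transcript on the opposite strand, along 4.83% of its exon bases. DARS-AS1 measured 1.26 and 2.06 FPKM in 2D and 0.344 and 3.98 FPKM in 3D, and whether the authors' counting used strand is not stated in the sources. The part of DARS-AS1 in the DARS values was not tested.

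The other cytosolic genes stood at or below 0 in hypoxia. All 12 free cytosolic synthetases were lower in both cultures, with a median of −0.36. VARS measured 39.7 and 27.9 FPKM in 2D and 33.5 and 21.4 FPKM in 3D (log2 change −0.56, SE 0.12, limma adjusted p = 0.0592). FARSA, the catalytic subunit of the phenylalanine enzyme, measured 52.3 and 35.0 FPKM in 2D and 49.9 and 38.0 FPKM in 3D (−0.47, limma adjusted p = 0.088). For both, the 2 hypoxia libraries lay below the 2 normoxia libraries. In the complex, IARS stood at −0.50 (limma adjusted p = 0.0759) and MARS at −0.42 (limma adjusted p = 0.105), with the libraries given above. The smallest changes were those of QARS (−0.04), GARS (−0.07) and KARS (−0.09). When libraries were rescaled to an equal sum of FPKM, IARS, VARS, LARS2 and EARS2 passed as lower.

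Mitochondrial synthetases had a median of −0.30 in hypoxia, beside −0.29 for the cytosolic genes. LARS2 stood lowest at −0.57 (SE 0.12, limma adjusted p = 0.0586), with 11.2 and 7.10 FPKM in 2D and 7.03 and 4.48 FPKM in 3D. EARS2, the mitochondrial glutamate enzyme, stood at −0.45 (limma adjusted p = 0.0846), with 16.8 and 11.95 FPKM in 2D and 16.6 and 12.01 FPKM in 3D, nearly the same pair of values in both cultures. The 4 mitochondrial genes above 0 were RARS2 for arginine (0.25), CARS2 for cysteine (0.17), WARS2 (0.16) and PARS2 (0.11), and none passed. RARS2 measured 11.7 and 12.7 FPKM in 2D and 11.7 and 15.7 FPKM in 3D. CARS2 measured 22.6 and 24.1 FPKM in 2D and 23.5 and 28.04 FPKM in 3D. PARS2 measured 2.81 and 2.82 FPKM in 2D and 2.71 and 3.30 FPKM in 3D, where the counting error of the log2 ratio, 0.23, exceeded the ratio of 0.21.

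**Figure D4:**
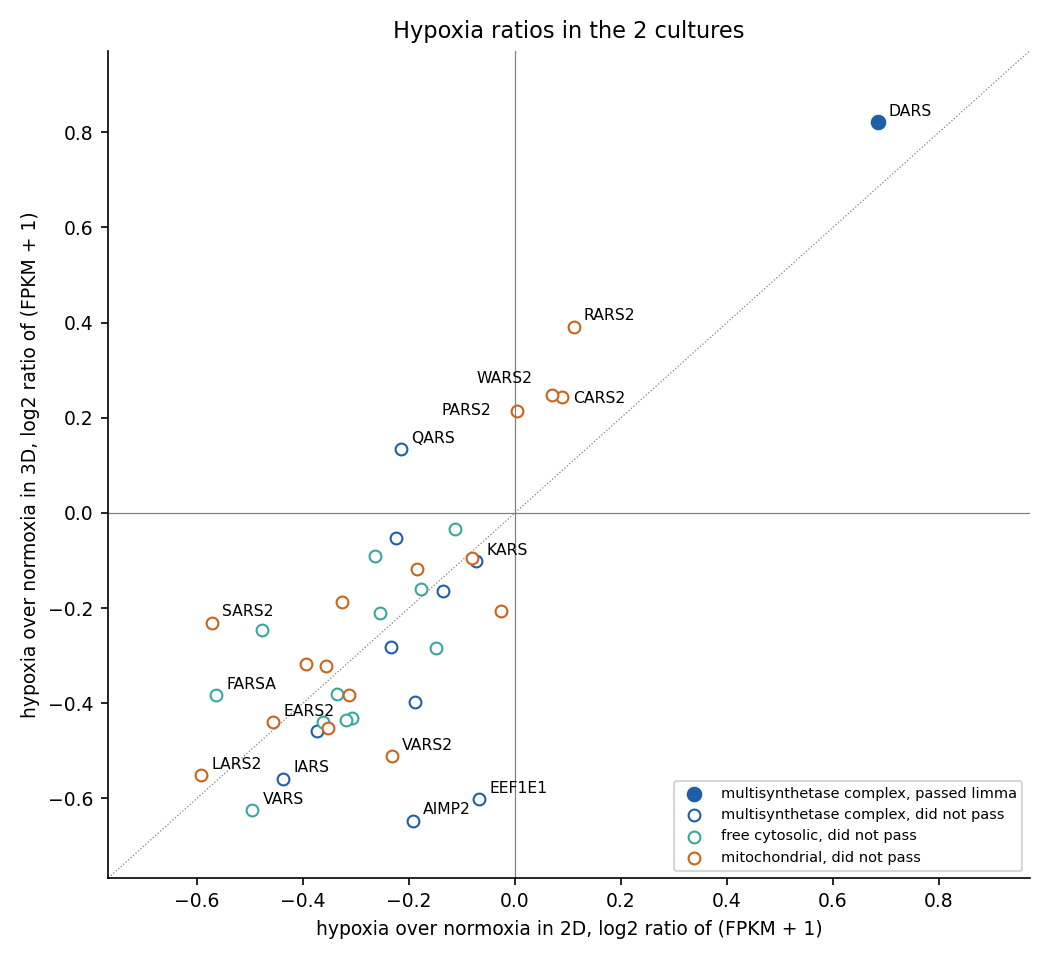
Log2 ratio of (FPKM + 1) of hypoxia over normoxia in 2D (horizontal) and in 3D (vertical) for the 39 genes, with the group as colour, the filled point for the gene that passed limma and a dotted line of equal ratios. DARS stands alone at the upper right, most genes lie in the lower left, and AIMP2 and EEF1E1 lie well under the line.

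The scaffolds EEF1E1 and AIMP2 had the largest differences between their hypoxia ratios in the 2 cultures of all 39 genes, and AIMP1 lay on the same side. EEF1E1, also known as AIMP3, measured 31.2 and 29.7 FPKM in 2D and 43.8 and 28.5 FPKM in 3D, so that its log2 ratio was −0.07 in 2D and −0.60 in 3D. AIMP2, on which the complex assembles, measured 25.95 and 22.6 FPKM in 2D and 26.9 and 16.8 FPKM in 3D, with ratios of −0.19 and −0.65. AIMP1, which is also secreted as a cytokine, measured 21.7 and 18.9 FPKM in 2D and 23.3 and 17.5 FPKM in 3D, with ratios of −0.19 and −0.40. In each case 3D hypoxia was the lowest library and 3D normoxia the highest. The differences between the ratios, −0.53, −0.45 and −0.21, have no test, because each group has 1 library; the counting errors of the ratios in 3D were 0.10, 0.12 and 0.09. AIMP2 shares 38.7% of its exon bases with EIF2AK1 on the opposite strand, and EEF1E1 shares 26.9% with a readthrough gene on its own strand that stayed at or under 1.30 FPKM. EIF2AK1 stood above AIMP2 in every library, at 49.9 and 51.7 FPKM in 2D and 55.8 and 58.7 FPKM in 3D. With the strand setting not given, the AIMP2 values are uncertain, and the part of EIF2AK1 in them was not tested.

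QARS and SARS2 had the largest differences in the opposite direction. QARS was 63.3 and 54.3 FPKM in 2D and 56.5 and 62.0 FPKM in 3D, a difference of ratios of 0.35. SARS2, the mitochondrial serine enzyme, was 26.7 and 17.7 FPKM in 2D and 27.2 and 23.0 FPKM in 3D, a difference of 0.34, and 15.8% of its exon bases overlap MRPS12, which reached 137.9 FPKM. Genes on the opposite strand also share exon bases with HARS2 (14.2%, with HARS), AIMP1 (11.7%), HARS (9.49%, with HARS2), EARS2 (8.15%), YARS (7.66%), WARS (6.41%), AARS2 (6.1%) and MARS (2.13%). Over the 39 genes the median difference of ratios was 0.02, with 20 values above 0 and 19 below (51.8% of all tested genes were below 0).

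Cytosolic and mitochondrial synthetases were compared by medians, sums and mean levels. The median log2 ratio of the cytosolic genes minus that of the mitochondrial genes was −0.12 for 3D over 2D at both oxygen levels, while for hypoxia it was −0.07 in 3D and 0.04 in 2D. The summed FPKM of cytosolic over mitochondrial genes was 4.38 and 4.31 in 2D and 4.16 and 3.86 in 3D. Both 3D libraries thus lay below both 2D libraries, and within each culture hypoxia lay below normoxia. The mean log2 level of cytosolic minus mitochondrial genes was likewise lower in both 3D libraries and lowest in 3D hypoxia, with 1.84 in both 2D libraries, 1.76 in 3D normoxia and 1.67 in 3D hypoxia. Genes are not replicates, so no test is attached to these values.

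Paired by amino acid, the cytosolic enzyme had the more negative culture value in 12 of 16 pairs and the more negative hypoxia value in 12 of 16. EPRS enters 2 of the pairs, with EARS2 and with PARS2. The cytosolic enzyme was at the higher FPKM in 15 pairs in each 2D library and in 14 in each 3D library. IARS was the pair member that stayed below its mitochondrial counterpart, with an IARS to IARS2 ratio of 0.792 and 0.662 in 2D and 0.709 and 0.517 in 3D. The cysteine pair crossed over: CARS was 1.53 and 1.02 times CARS2 in 2D but 0.887 and 0.622 times CARS2 in 3D. The tryptophan pair narrowed from 16.5 and 12.2 in 2D to 10.9 and 6.75 in 3D, with WARS2 the gene that rose. The methionine pair narrowed too, from 16.5 in each 2D library to 9.83 in each 3D library, with MARS the gene that fell. The alanine pair, where both genes fell, had ratios of 17.6 and 18.7 in 2D and of 21.3 or more in 3D.

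**Figure D5:**
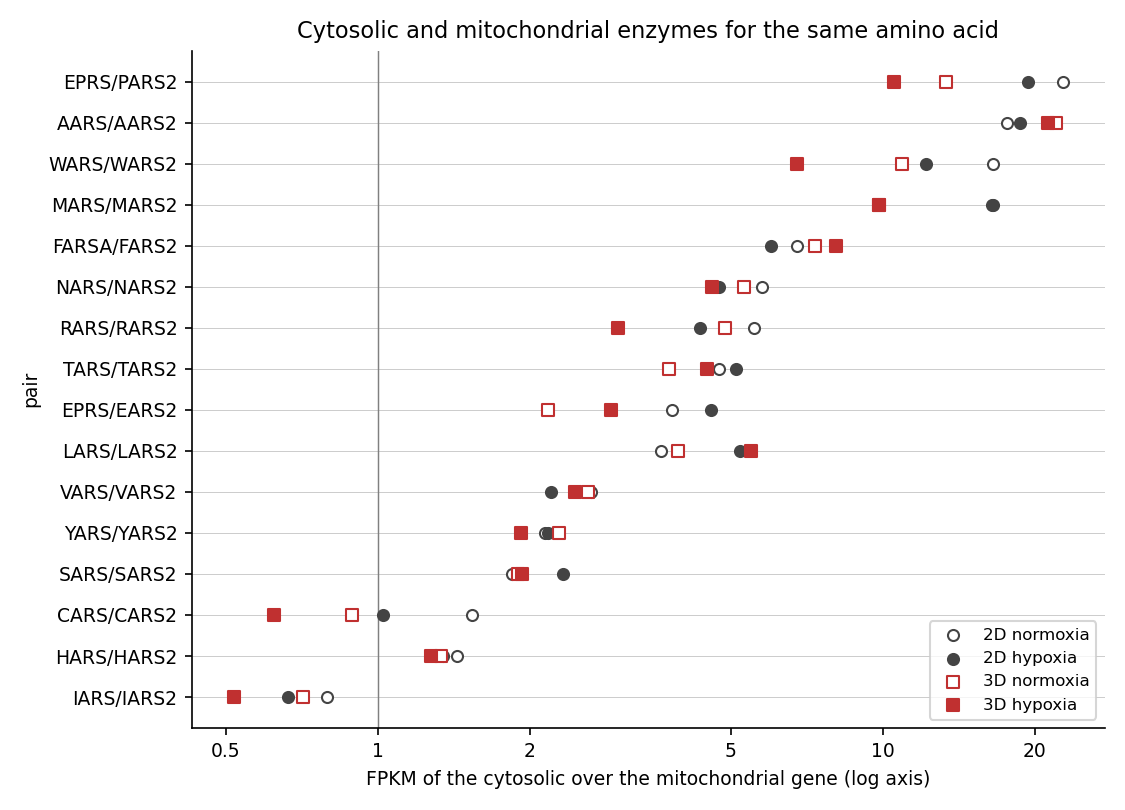
FPKM of the cytosolic enzyme divided by that of the mitochondrial enzyme for the same amino acid (log axis), 1 point per library, for 16 pairs; the vertical line marks equal levels. The isoleucine pair lies left of the line in all 4 libraries, and the cysteine pair crosses it between 2D normoxia (1.53) and 3D hypoxia (0.622).

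Other genes of the same pathways were read from lists of general knowledge. Of 30 further genes, namely ATF4 and listed targets for amino acid uptake, synthesis and stress, 13 fell in 3D and 0 rose. Their median log2 change was −0.49. Of all tested genes, 11.6% fell and 10.4% rose in 3D, with a median of −0.03. The same shares apply to the 3D counts of the lists that follow. XPOT, a tRNA exporter, is in this list and in the tRNA list below. The steepest falls in this list were those of the light and heavy chains of the large neutral amino acid transporter. SLC7A5 measured 519 and 588 FPKM in 2D and 162 and 214 FPKM in 3D (log2 change −1.56, limma adjusted p = 0.00673), and SLC3A2 measured 621 and 584 FPKM in 2D and 224 and 216 FPKM in 3D (−1.45, limma adjusted p = 0.00683). CBS, of cysteine synthesis (−1.08), SLC7A1, the arginine and lysine transporter (−1.05), PHGDH, of serine synthesis (−0.89), and ASNS, the asparagine synthetase (−0.84), also fell. ATF4 itself, which is controlled largely at translation, stayed at 165 and 166 FPKM in 2D and 172 and 176 FPKM in 3D and passed in neither effect. Hypoxia gave another picture for this list: STC2 (3.33) and VLDLR (1.23) rose, NUPR1 (−0.90) and PHGDH (−0.76) fell, and the median was −0.05.

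Of 14 genes that sense or act through eIF2 phosphorylation, 1 rose in 3D (IMPACT, 0.60) and 0 fell, and hypoxia had 0 calls in either direction by limma (3 at an unadjusted p under 0.05, as were 25.6% of all tested genes). EEF1A1, which carries the charged tRNA to the ribosome, was the elongation factor of 10 that rose in 3D (0.73, limma adjusted p = 0.0373), while hypoxia again had 0 calls (2 higher at an unadjusted p under 0.05, beside 12.9% of all). Among 28 tRNA maturation and export genes, XPOT, the tRNA exporter (−0.52), and ELAC2, which trims the 3′ end of tRNA (−0.58), fell in 3D and DTD1, which removes D-amino acids from tRNA, rose (0.45, limma adjusted p = 0.0498); in hypoxia POP5, a subunit of RNase P, fell (−0.65). Of 17 further genes of mitochondrial translation, all 17 were below 0 in hypoxia with 0 calls by limma (6 lower at an unadjusted p under 0.05, beside 12.7% of all) and a median of −0.22.

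WARS is known as an interferon-gamma target, and 14 interferon target genes were set beside it. In 3D, 4 of them rose, among them OAS1 (1.07) and IFI35 (0.99), and TAP1 was among those that fell, whereas WARS stood at −0.05. In hypoxia GBP2 rose (1.39) and OAS1 fell (−1.41), whereas WARS stood at −0.36 (limma adjusted p = 0.131). Hypoxia response cores in the promoter windows were counted as well, on both strands, and a window may count for both. ACGTG was held by 10 of the 33 genes (30.3%), against 24.9% of all genes with a window, and GCGTG by 28 of 33 (84.8%), against 40.6%. These background shares take in all genes with a window, expressed or not, and no share among tested genes was taken. Of the 24 further ATF4 list genes with a window, 20.8% held ACGTG and 83.3% held GCGTG. No window was at hand for DARS.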

How the data were processed

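Total RNA was taken with a miRNeasy Micro kit and a TruSeq Stranded mRNA kit served for the libraries, per the labels' protocols. The hg19 build, Cuffdiff 2.2.1, TopHat2 2.1.1, SAMtools 0.1.18 and Bowtie2 2.2.8 are named in the submitters' processing notes. The annotation, strand setting, read length and scaling are not stated in the sources. Each library's file, as the authors deposited it, holds an FPKM value for every gene symbol.

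FPKM values are not counts, so no count test was run. Values were taken as log2(FPKM + 1), which understates the changes of low genes, and 12663 genes passed the filter (mean of 1 FPKM or more). The average effects of culture and oxygen were fitted together and tested by limma (version 3.58.1, R 4.3.3; trend, additive terms, 4 libraries, residual degrees of freedom 1, prior 4.67), adjusted by Benjamini-Hochberg over all genes kept, at 0.05. The fit was tested on simulated data. Pairs of libraries and differences of ratios were described by size, with no test. Folds are on the log2(FPKM + 1) scale, except the ratios between paired enzymes, which are of FPKM.

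Depth was estimated from the most frequent small product of FPKM and length among 2134 genes with 1 transcript of over 1000 bases. It rests on 73 to 90 genes per library, and counting errors from it cover counting alone. GENCODE 29 (GRCh38, another build than the authors') served for lengths and exon overlaps. Promoter windows came from RefSeq (GRCh38.p14). Python 3.11.15, pandas 2.3.3, numpy 2.4.6 and matplotlib 3.10.9 were used for the rest.

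The members, the lists and the tests were chosen with earlier results of these data known. Values in all 4 libraries were given for genes that passed, for the 6 highest and 6 lowest by each average effect and for the 4 largest differences of hypoxia ratios, and up to 4 genes per other list. The alternatives tried were other pseudocounts, filters, scalings and fits. Some results of the other lists in the culture comparison are not reported here.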

Additional observations from a re-analysis of the deposited data

Results flagged for a closer look

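QARS was the gene of the 39 whose hypoxia ratios had opposite signs in the 2 cultures, each by more than 2 counting errors. Its hypoxia log2 ratio was 0.133 in 3D and −0.216 in 2D, a difference of 0.349. The same 4 values give a 3D over 2D log2 ratio of −0.162 in normoxia and 0.187 in hypoxia, a difference of −0.349. Neither difference was tested, since each group has 1 library.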

How the results depend on the processing

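With 1 library per group, leaving out any library leaves the additive fit no residual degree of freedom, so that was not run. No paired analysis was possible because the labels carry no replicate numbers and each group has 1 library. Pseudocounts of 0.1 and 0.5 changed no member's call.

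In hypoxia, the count of members called higher went from 1 to 0 with no filter on low values, with libraries centred on their median, without the trend, and with 1 term in place of 2 (adjusted p of DARS 0.117, 0.0533, 0.0523 and 0.832). The count called lower went from 0 to 2 with a mean of at least 5 FPKM, 4 with each library rescaled to a sum of 1000000, and 3 after small RNA genes and those with any value of 0 were left out. For 3D culture, the 11 calls lower became 0 with no filter and 0 with 1 term. The call higher (1) became 0 with no filter, with a mean of at least 5 FPKM (where WARS2 is not among the 36 members left), with rescaling and with 1 term, and 2 without small RNA genes. The median culture gap between cytosolic and mitochondrial members, −0.11, was −0.13 by means and −0.16 without scaffolds.

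Rescaling moved the median of all genes from −0.03 to −0.21 for culture and from −0.01 to −0.14 for hypoxia. Relative to it, the members' median went from −0.15 to −0.17 and from −0.28 to −0.29. Centring turned the culture sign of AIMP1 and EARS2, both near 0. Members at least 1.5-fold apart changed with rescaling from 3 to 8 lower in hypoxia in 3D, from 1 to 6 lower and from 1 to 0 higher in hypoxia in 2D, from 7 to 14 lower in 3D in normoxia, and from 5 to 14 lower and 1 to 0 higher in 3D in hypoxia. With centring the last lower count was 3, and with either smaller pseudocount the lower count in 2D hypoxia was 2.

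Over all genes, the counts higher and lower were 1313 and 1472 for culture, 767 and 3132 after rescaling, 1 and 2 with no filter (19356 genes) and 1 and 3 with 1 term. For hypoxia they were 405 and 208, then 303 and 475, 5 and 0, and 3 and 0, with 169 and 79 after centring, 254 and 112 without the trend and 755 and 531 without small RNA genes. Causes were not tested. No member reversed its direction past the threshold in any setting. Depth limits PARS2 most, with about 75.0 fragments in 3D normoxia.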
